A study of Mus musculus with 2 samples.

Results

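Cholesterol synthesis and turnover were described from 7 genes, Hmgcs1, Sqle, Fdft1, Dhcr7, Srebf2, Insig1 and Cyp46a1, of 32285 genes in the deposited tables. The members were chosen by name, and all 7 were found and passed the filter on low counts. The study profiled the thalamus of 2 untreated wildtype C57BL/6J mice, an inbred laboratory strain, at 2 months of age by droplet-based single-cell RNA sequencing. Each mouse gave 1 library of cells of mixed type, freed from the tissue by enzymes,, so both form a single group and the comparisons set cell classes of the same animals against each other. The series set out to profile gene expression in this tissue at that age.

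Neurons and glia of the adult brain make their own cholesterol, because circulating lipoproteins barely cross the blood-brain barrier. Synthesis runs from acetyl-CoA through mevalonate and squalene to the sterols, oligodendrocytes need large amounts of the product for myelin, and astrocytes pass cholesterol on to neurons in particles with apolipoprotein E. When sterols are scarce in the endoplasmic reticulum, the transcription factor SREBP-2 is released and raises the genes of the pathway, and Insig proteins hold it back when sterols are plentiful. Surplus cholesterol leaves the brain mainly after hydroxylation by the enzyme that Cyp46a1 encodes, which is known as a neuronal enzyme.

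The matrices held 7889 barcodes for mouse 1 and 12107 for mouse 2, and 6185 and 9176 cells were kept, with medians of 17998 and 14759 unique molecular identifiers (UMIs) per cell. The kept cells formed 36 clusters, which were named "-like" classes from marker genes, and 14 classes had enough cells and UMIs in both mice. Of the tested classes, 13 had a marker list of their own. All markers of a class's own list were detected in both mice, except Lhx6 at 0 in GABAergic neuron-like cells of mouse 1. Because the classes were named from these lists, this detection does not test the names. All 12 mature oligodendrocyte markers were also detected in astrocyte-like cells of both mice, where 10 and 9 of 16 GABAergic markers were. The unresolved neuron-like class carried neuron markers without a subtype. A habenular class was present too, so the dissected tissue included the habenula, which adjoins the thalamus. The libraries shared 36 barcodes, of which 15 were kept in both. Messenger RNA of ribosomal proteins varied between classes and clusters, and the reason was not tested. It made up 0.851% and 0.891% of UMIs in astrocyte-like cells of mice 1 and 2, against 3.37% and 2.88% in mature oligodendrocyte-like cells. The 7 genes and 42 further genes of the pathway were held out of the genes used for clustering.

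On the GRCm38 assembly, with GENCODE vM21 gene models, Hmgcs1 (ENSMUSG00000093930) lies on chromosome 13 from 119690379 to 119708260. Sqle (ENSMUSG00000022351) lies on chromosome 15 from 59315077 to 59331192, and Srebf2 (ENSMUSG00000022463) on the same chromosome from 82147181 to 82205379. Insig1 (ENSMUSG00000045294) lies on chromosome 5 from 28071363 to 28078662, and Dhcr7 (ENSMUSG00000058454) on chromosome 7 from 143823145 to 143848410. Cyp46a1 (ENSMUSG00000021259) lies on chromosome 12 from 108334381 to 108362234. Fdft1 (ENSMUSG00000021273), on chromosome 14 from 63145150 to 63179578, is the member on the minus strand. It overlaps Ctsb, which encodes the lysosomal protease cathepsin B, on the other strand, and Ctsb had 73923 UMIs in the summed classes. In microglia-like cells Ctsb reached 960 and 934 CPM where Fdft1 had 7.70 and 7.34 CPM. Hmgcs1 overlaps the antisense gene Gm48342, which had 496 UMIs. Whether reads were counted by strand is not known from the labels or headers, so the values of Fdft1 and Hmgcs1 are uncertain to the extent that reads of such a partner could be split. All 7 are protein-coding genes.

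Promoter sequences are shown for 3 members, Hmgcs1, Insig1 and Cyp46a1. Hmgcs1 rose most from precursors to newly formed oligodendrocytes, and Insig1 and, at low counts, Cyp46a1 rose with it. Of the members, Cyp46a1 differed most between neuron types. RefSeq promoters on GRCm38.p6 (250 bases before to 50 after the start) were matched for 5 of the 7 members, Hmgcs1, Srebf2, Insig1, Dhcr7 and Cyp46a1. All are written 5′ to 3′ on the plus strand, which is the strand of these genes. Capitals mark matches, on either strand, to any of 3 motifs: CACNCCAC, a form of the sterol regulatory element that SREBP proteins bind, CCAAT, the NF-Y box, and GGGCGG, the Sp1 box. The Hmgcs1 and Cyp46a1 windows are the 250 bases before the start, at chr13:119690101-119690350 and chr12:108334066-108334315. For Insig1, whose match lies inside an annotated transcript, the 30 bases at chr5:28071392-28071421 are shown.
Hmgcs1: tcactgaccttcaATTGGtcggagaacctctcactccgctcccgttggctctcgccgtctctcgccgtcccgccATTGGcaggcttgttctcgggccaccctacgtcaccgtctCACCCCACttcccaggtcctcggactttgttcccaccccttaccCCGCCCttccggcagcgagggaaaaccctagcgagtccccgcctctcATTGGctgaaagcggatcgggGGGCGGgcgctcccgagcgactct
Insig1: cgtgtagtgtcGTGGCGTGtaccttccatg
Cyp46a1: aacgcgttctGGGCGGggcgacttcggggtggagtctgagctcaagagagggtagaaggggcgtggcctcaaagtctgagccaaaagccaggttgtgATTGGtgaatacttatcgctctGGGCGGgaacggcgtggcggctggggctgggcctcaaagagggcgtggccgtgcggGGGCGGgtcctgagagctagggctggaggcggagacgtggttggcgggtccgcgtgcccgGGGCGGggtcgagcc

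Among the members, CACNCCAC was matched in Hmgcs1, beginning 136 bases before the start, and in Insig1, beginning 9 bases before it on the opposite strand. Of 32851 promoters of the same length, 6.24% held this motif, 37.4% held CCAAT and 35.7% held GGGCGG. Each of the 5 matched members, Cyp46a1 included, held CCAAT and also GGGCGG at a start. Counted by promoter, as those shares are, 5 of their 7 promoters held CCAAT, 6 held GGGCGG and 2 held CACNCCAC. Among the synthesis genes of the pathway list, 13 had a promoter, and 12 held CCAAT, 12 held GGGCGG and 1 held CACNCCAC. By promoter these counts were 12, 12 and 1 of 14. Of 28 promoters of the other 19 pathway genes, 10 held CCAAT, 16 held GGGCGG and 0 held CACNCCAC. A match is a description of the letters and was not tested for binding.

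Levels are given as counts-per-million (CPM) of the summed UMIs of a class in a mouse, first for mouse 1 and then for mouse 2. Highest, lowest and the order of classes refer to the 14 tested classes. Hmgcs1 encodes HMG-CoA synthase, an early enzyme of the mevalonate pathway, and its level was 279 and 308 CPM in newly formed and 222 and 296 CPM in mature oligodendrocyte-like cells. These were the highest class means (294 ± 21.0 and 259 ± 52.5 CPM, SD, n = 2), followed by glutamatergic (105 and 247), unresolved (149 and 186) and GABAergic neuron-like cells (129 and 168). Astrocyte-like cells had 74.2 and 202 CPM, and microglia-like cells were lowest at 27.2 and 30.8 CPM. Mouse 2 was higher than mouse 1 in 13 of the 14 classes, and no pair of neighbours in the order of class means was separated in both mice, so the order is loose except between its ends.

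Fdft1 encodes squalene synthase, which commits the pathway to sterols. It was highest in astrocyte-like cells, at 85.2 and 127 CPM, and stood at 93.3 and 58.1 in newly formed and 71.5 and 66.7 in mature oligodendrocyte-like cells. Neuron-like classes had class means of 30.6 to 64.4 CPM, and all vascular and immune classes had means of at most 17.1 CPM. In leptomeningeal fibroblast-like cells no UMI was found in mouse 2, which allows up to 6.73 CPM by counting error. Sqle encodes squalene epoxidase, which adds the oxygen needed for ring closure. Its level was 88.3 and 71.5 CPM in newly formed oligodendrocyte-like cells, above both mice of every other tested class. Microglia-like cells were the lowest tested class, at 1.92 and 1.98 CPM. Ependymal-like cells, too few to be tested, stood higher, at 149 and 93.4 CPM on 12 and 45 UMIs in 4 and 29 cells. Dhcr7 encodes the reductase that turns 7-dehydrocholesterol into cholesterol. Astrocyte-like cells led with 40.4 and 55.0 CPM, ahead of mature (26.4 and 27.9) and newly formed oligodendrocyte-like cells (23.5 and 21.2) and precursors (15.2 and 16.2), and each of these 3 steps separated both mice.

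Srebf2, the gene of SREBP-2, was the most even member, with class means from 26.7 ± 2.64 CPM in microglia-like to 107 ± 0.184 CPM in astrocyte-like cells, and no neighbouring classes were separated. Insig1 encodes an anchor of the SREBP escort protein in the endoplasmic reticulum. It was highest in mature oligodendrocyte-like (68.7 and 88.0 CPM) and astrocyte-like cells (53.0 and 101 CPM), and lowest in microglia-like cells (7.78 and 18.3 CPM).

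Cyp46a1 had another order. Glutamatergic neuron-like cells had 131 and 98.0 CPM, unresolved neuron-like cells 57.4 and 36.8, and GABAergic neuron-like cells 38.7 and 30.8. The other 11 tested classes, habenular neuron-like cells among them, had means between 3.31 and 10.8 CPM. Choroid plexus-like cells, which a UMI minimum chosen after seeing the data kept out of the tested classes, stood at 33.3 and 122 CPM on 15 and 10 UMIs in 107 and 21 cells. These non-neuronal values reached the range of the neuron-like classes and are in none of the comparisons. The gap between GABAergic neuron-like cells and the next class, newly formed oligodendrocyte-like cells at 11.2 and 10.5 CPM, separated both mice.

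**Figure D1:**
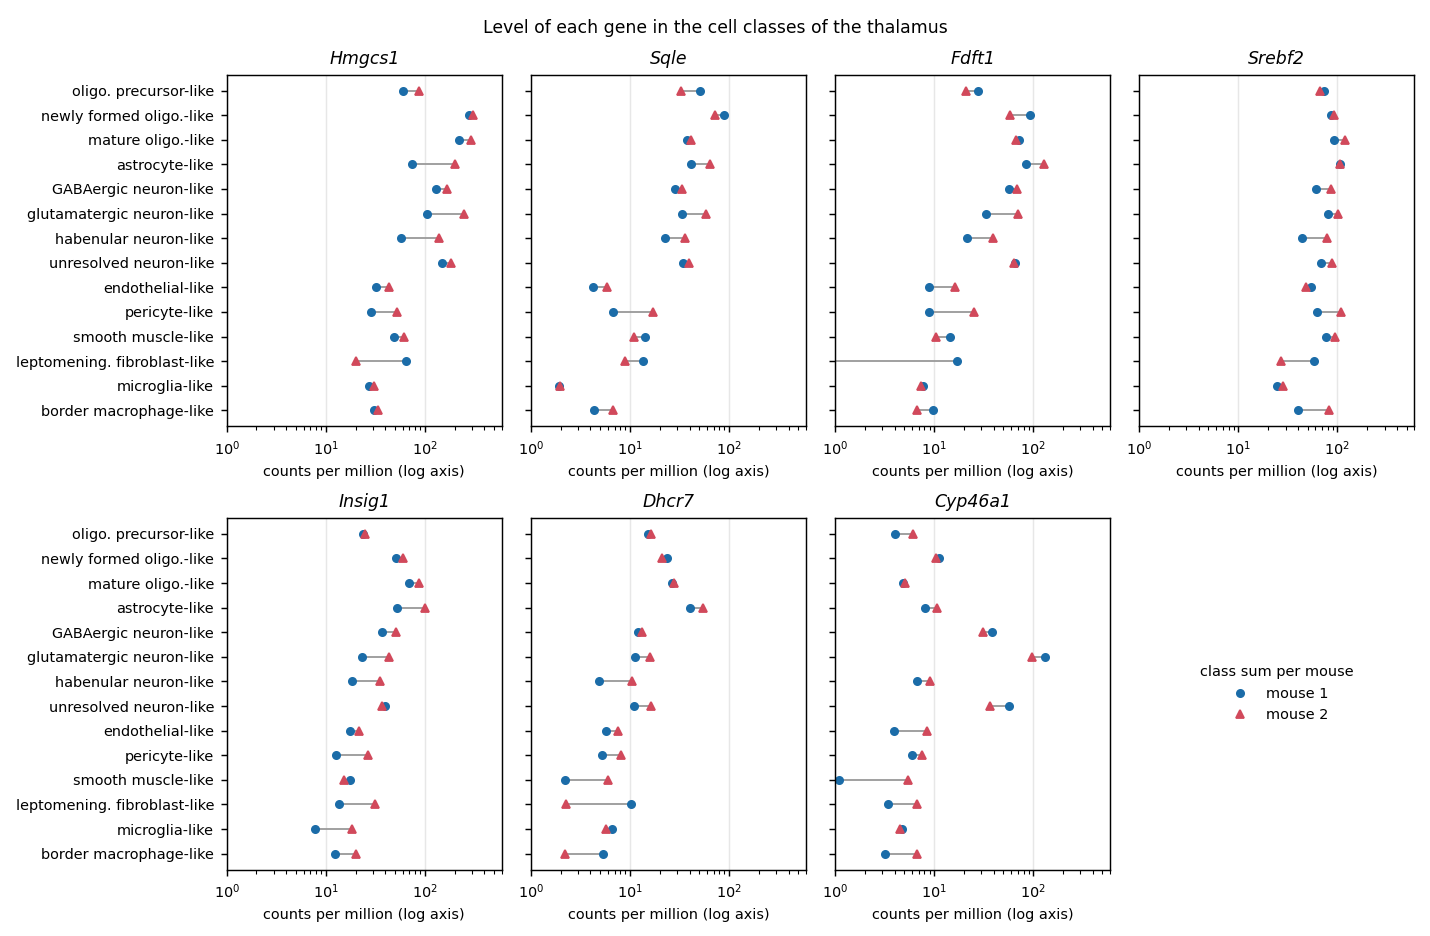
Level of the 7 genes in 14 cell classes. The horizontal axis is CPM of the class sum on a log scale, circles are mouse 1, triangles are mouse 2, and a line joins them; Fdft1 had no UMI in leptomeningeal fibroblast-like cells of mouse 2, so that point is off the axis. Hmgcs1 is highest in newly formed and mature oligodendrocyte-like cells, and Cyp46a1 stands out in 3 of the 4 neuron-like classes, with habenular cells at 6.72 and 9.09 CPM.

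Differences between classes were tested with edgeR's quasi-likelihood test on the sums, with the mouse as a block, over 17212 genes. A gene was called where the adjusted p was below 0.05 and the log2 fold change reached 1 in size. The 8 comparisons share class sums and are not independent of each other. Fold changes use TMM scaling and average classes on the log scale, so small ones can differ in sign from the CPM means. Of the 56 pairs of member and comparison, 21 were called. Over all tested genes, 4.83% to 24.2% were called per direction of a comparison, and each share is given with its comparison.

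From precursor-like to newly formed oligodendrocyte-like cells, 5 of the 7 members rose and none fell, where 9.87% of all tested genes were called higher and 13.8% lower. Hmgcs1 went from 60.8 and 87.4 CPM in precursors to 279 and 308 CPM, a log2 fold change of 2.14 ± 0.35 (SE, adjusted p = 0.000115). Fdft1 went from 27.7 and 21.0 to 93.3 and 58.1 CPM (1.80 ± 0.42, adjusted p = 0.00288), and Insig1 from 23.7 and 24.8 to 51.4 and 59.7 CPM (1.33 ± 0.32, adjusted p = 0.00319). In these genes both mice of the newly formed class lay above both mice of the precursor class. Sqle went from 50.9 and 32.7 to 88.3 and 71.5 CPM (1.08 ± 0.29, adjusted p = 0.00796). Cyp46a1 went from 4.02 and 6.12 to 11.2 and 10.5 CPM (1.09 ± 0.38, adjusted p = 0.0369), on 9 and 93 UMIs in precursors and 20 and 40 in newly formed cells. The calls of Sqle and Cyp46a1 sat close to the fold threshold and were lost under several alternatives, so that 3 members were called under DESeq2's test. Srebf2 (0.47 ± 0.29, adjusted p = 0.249) and Dhcr7 (0.63 ± 0.32, adjusted p = 0.153) did not pass.

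The other enzymes of the pathway moved with them: 15 of 16 synthesis genes of the list rose and none fell, with a median log2 fold change of 1.48 against −0.05 over all genes. Mvd, the mevalonate decarboxylase, had 46.5 ± 7.24 CPM in newly formed cells and 8.86 ± 1.36 in precursors (SD, n = 2; 2.57 ± 0.34, adjusted p = 1.06e-05). Tm7sf2, a sterol reductase, was the listed enzyme that did not pass, at 0.95 ± 0.43 (adjusted p = 0.105). None of the 8 sensing genes was called (their log2 fold changes ran from −1.14 to 0.74), while export and carrier genes went the other way, with 3 of 5 lower and 1 higher. Apoe, the carrier of brain cholesterol, fell from 1219 ± 53.2 to 144 ± 21.3 CPM (−2.96 ± 0.58, adjusted p = 0.00059), and Abcg1, an exporter of cholesterol to lipoproteins, from 104 ± 12.3 to 16.4 ± 11.3 CPM (−2.50 ± 0.33, adjusted p = 9.58e-06).

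Ribosomal protein messages moved with this comparison, at 1.43% and 1.96% of UMIs in precursors and 3.23% and 2.81% in newly formed cells. Among cells with at least 1% of UMIs from these messages, an alternative chosen after seeing the data, Hmgcs1, Fdft1 and Insig1 were still called and Sqle (0.82, adjusted p = 0.0685) and Cyp46a1 (0.84, adjusted p = 0.131) were not. Of the 12 mature oligodendrocyte markers, 12 were detected in each mouse in both classes, with summed levels of 602 and 158 CPM in precursors and 2514 and 1910 CPM in newly formed cells, against 21716 and 19602 CPM in mature cells. Of the 12 neuron markers, 12 were detected in precursors (1205 and 1473 CPM) and 11 and 12 in newly formed cells (724 and 858 CPM), with Nrgn at 0 in mouse 1. Ctsb, the overlapping partner of Fdft1, rose too, by 1.71 ± 0.26 (adjusted p = 4.52e-05). The part of these in the result was not tested otherwise.

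Between newly formed and mature oligodendrocyte-like cells, none of the 7 members was called by edgeR or by DESeq2, where 10.1% of all genes were higher and 13.6% lower in mature cells. At an unadjusted p below 0.05 the count was 4 with edgeR and 3 with DESeq2. The share of all genes at that threshold was not worked out, so nothing is drawn from these counts. Hmgcs1 had 222 and 296 CPM in mature cells and 279 and 308 in newly formed cells, with overlapping mice and a log2 fold change of 0.14 ± 0.33. Insig1 came nearest among those higher in mature cells (0.84 ± 0.30, adjusted p = 0.0388, under the fold threshold), and Sqle had 38.0 and 41.8 CPM in mature cells (−0.66 ± 0.28, adjusted p = 0.0869).

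Within the wider pathway enzymes were called in both directions. Of 16 synthesis genes 4 were lower in mature cells and 1 higher, where 13.6% of all genes were lower and 10.1% higher. With no gene filter 3 were lower and 2 higher. Mvd had 11.7 ± 1.70 CPM in mature and 46.5 ± 7.24 in newly formed cells (SD, n = 2; −1.64 ± 0.31, adjusted p = 0.000261). Acat2, which makes acetoacetyl-CoA, was also among those that fell (−1.15 ± 0.33), and Ebp, a sterol isomerase, rose (1.21 ± 0.26). These 3 were named after their values were seen. Abcg1 (139 ± 9.05 against 16.4 ± 11.3 CPM, 3.38 ± 0.33, adjusted p = 1.19e-07) and Apoe (909 ± 128 against 144 ± 21.3 CPM, 2.95 ± 0.58, adjusted p = 0.00047) were higher again in mature cells. Lrp1, a receptor that takes up apolipoprotein E particles, was lower (4.41 ± 0.916 against 111 ± 53.2 CPM, −4.25 ± 0.34, adjusted p = 8.57e-09), as was Cyp7b1, an oxysterol hydroxylase (1.32 ± 0.136 against 29.7 ± 9.54 CPM, −4.14 ± 0.37, adjusted p = 3.05e-08). Under DESeq2's size factors the median of all genes moved by −0.14 in this comparison, by −0.16 in mature oligodendrocytes against astrocytes, and by −0.12 in glutamatergic against GABAergic neurons; in no other comparison did it move by more than 0.1.

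**Figure D2:**
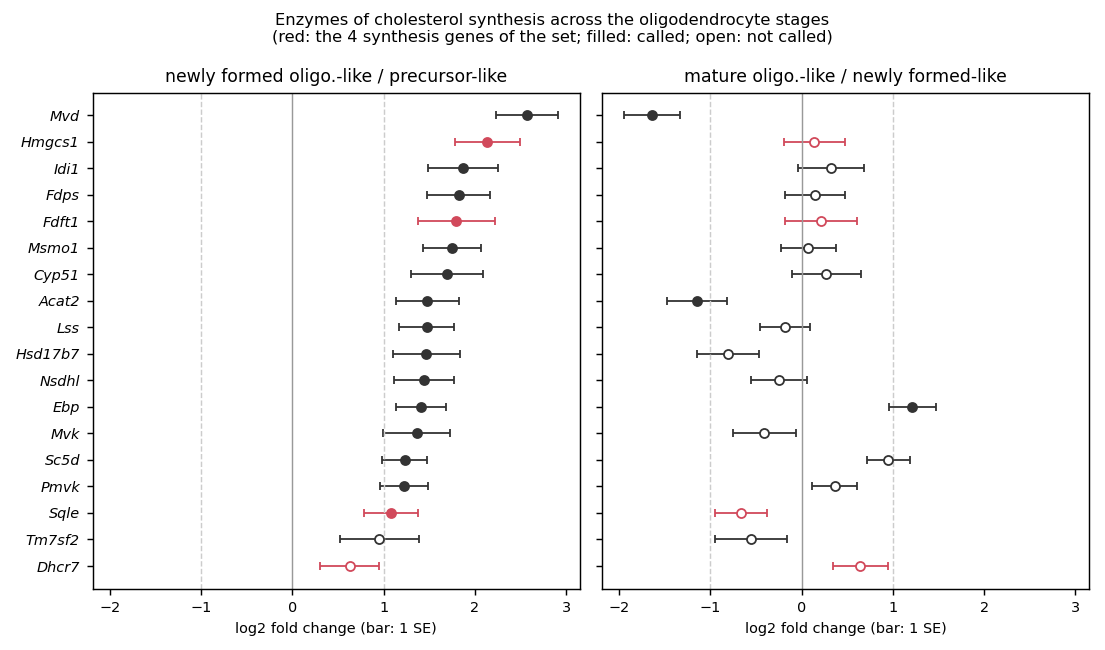
Enzymes of cholesterol synthesis across the oligodendrocyte stages, as log2 fold change with 1 SE, ordered by the left panel. Red points are Hmgcs1, Fdft1, Sqle and Dhcr7, black points are 14 of the 16 listed enzymes, and filled points were called. All points lie above 0 on the left, with Mvd highest at 2.57, and on the right Mvd lies lowest of those drawn, at −1.64.

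Clusters within the mature oligodendrocyte-like class differed in the members, which is given as a description because clusters were not tested. In the cluster led by Klk6, Hmgcs1 stood at 343 and 380 CPM and Sqle at 78.3 and 62.9 CPM. In the other 3 mature clusters that held 20 or more cells of each animal, Hmgcs1 ranged from 180 to 322 and Sqle from 27.6 to 46.1 CPM, so both mice of the Klk6 cluster lay above all of them. Insig1 had the reverse order, at 48.4 and 50.6 CPM in the Klk6 cluster and 57.6 to 111 CPM in the others. Ribosomal shares were alike, at 3.30% and 2.82% in the Klk6 cluster and 2.78% to 3.56% in the others. The remaining mature cluster held 16 cells of mouse 1 and 1451 of mouse 2 and was left out of this description, and another held 1172 and 310, so the makeup of the class differed between mice.

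Mature oligodendrocyte-like cells were set against astrocyte-like cells, the other glia known for cholesterol synthesis. Hmgcs1 was the 1 member called, higher in oligodendrocytes, where 17.6% of all genes were higher and 22.8% lower. Its levels were 222 and 296 CPM against 74.2 and 202 CPM (1.26 ± 0.34, adjusted p = 0.00395), and without the mouse block it missed the threshold (1.18, adjusted p = 0.0528). Fdft1 and Dhcr7 had higher CPM in astrocytes without being called (−0.35 ± 0.38 and −0.56 ± 0.28). Srebf2 had 107 ± 18.4 and 107 ± 0.184 CPM and Insig1 78.3 ± 13.7 and 77.0 ± 33.9 CPM. Of the synthesis genes 3 were higher in oligodendrocytes and 5 in astrocytes. Cyp7b1 (1.32 ± 0.136 against 279 ± 4.31 CPM, −7.49 ± 0.40, adjusted p = 2.19e-11) and Lrp1 (4.41 ± 0.916 against 343 ± 0.334 CPM, −6.04 ± 0.37, adjusted p = 7.41e-11) marked the astrocyte side. Abcg1 (139 ± 9.05 against 2.69 ± 1.35 CPM, 6.09 ± 0.39, adjusted p = 1.25e-10) and Abca2, a lipid transporter of oligodendrocytes (449 ± 36.8 against 32.2 ± 6.01 CPM, 4.04 ± 0.31, adjusted p = 1.05e-09), marked the oligodendrocyte side.

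Astrocyte-like cells were then set against the mean of glutamatergic, habenular and GABAergic neuron-like cells. Dhcr7, Fdft1 and Insig1 were higher in astrocytes and Cyp46a1 was lower, where 21.4% of all genes were higher and 21.3% lower. Dhcr7 had 40.4 and 55.0 CPM in astrocytes and a neuron mean of 11.3 ± 2.73 CPM (SD, n = 2; 2.30 ± 0.22, adjusted p = 2.04e-08). Fdft1 had 85.2 and 127 CPM against 48.6 ± 16.1 (1.37 ± 0.30, adjusted p = 0.000513), and Insig1 53.0 and 101 CPM against 34.9 ± 12.3 (1.33 ± 0.23, adjusted p = 3.65e-05). The mice of the 2 sides did not overlap in these genes. Hmgcs1 was not called (0.13 ± 0.27, adjusted p = 0.723), with 138 ± 90.5 CPM in astrocytes and 141 ± 61.8 in neurons. Sqle and Srebf2 had adjusted p below 0.05 but folds under the threshold (0.76 ± 0.22 and 0.75 ± 0.22).

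Among the synthesis genes 6 of 16 were higher in astrocytes and none lower. Apoe (5175 ± 805 against 49.3 ± 38.1 CPM, 7.07 ± 0.44, adjusted p = 2.56e-11) and Abca1, the transporter that loads it with cholesterol (278 ± 31.6 against 10.3 ± 0.798 CPM, 4.95 ± 0.19, adjusted p = 5.6e-14), were higher in astrocytes, as was Srebf1, the gene of the related factor SREBP-1 (109 ± 25.8 against 6.28 ± 0.153 CPM, 4.32 ± 0.22, adjusted p = 1.11e-12). Cyp7b1 was higher as well (279 ± 4.31 against 13.8 ± 0.382 CPM, 4.57 ± 0.23, adjusted p = 1.71e-12). Ribosomal messages were 0.851% and 0.891% of UMIs in astrocytes and 1.54% to 3.75% in the neuron classes, and the same 4 members were called among cells with at least 1%. All 12 neuron markers were detected in astrocytes, at 218 and 528 CPM in sum, against 11316 to 17680 CPM in the 3 neuron classes.

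Endothelial-like cells form the wall of the vessels and face the lipoproteins of the blood. Against astrocyte-like cells 6 of the 7 members were lower, where 22.1% of all genes were lower and 19.5% higher. Sqle had 4.23 and 5.84 CPM in endothelial and 40.9 and 63.9 CPM in astrocyte-like cells (−3.39 ± 0.34, adjusted p = 6.32e-08). Fdft1 had 8.91 and 16.2 against 85.2 and 127 CPM (−3.17 ± 0.44, adjusted p = 4.88e-06), and Dhcr7 5.79 and 7.63 against 40.4 and 55.0 CPM (−2.84 ± 0.33, adjusted p = 3.92e-07). In all 6 genes both endothelial values lay below both astrocyte values. Insig1 (−1.90 ± 0.31, adjusted p = 3.21e-05) and Hmgcs1 (−1.76 ± 0.35, adjusted p = 0.000287) followed. Srebf2 was lower by the least (54.2 and 48.0 against 107 and 107 CPM, −1.06 ± 0.29, adjusted p = 0.00411), and among cells with at least 1% ribosomal UMIs it was under the fold threshold (−0.88, adjusted p = 0.0184). Cyp46a1 was not called (−0.76 ± 0.37, adjusted p = 0.0971), with overlapping mice.

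Of the synthesis genes 11 of 16 were lower in endothelial cells and Ebp was higher. Among cells with at least 1% ribosomal UMIs 12 were lower and 0 higher, so the call of Ebp was lost. Msmo1, a sterol demethylase subunit, fell from 432 ± 167 CPM in astrocytes to 29.6 ± 3.79 CPM in endothelium (−3.84 ± 0.34, adjusted p = 1.16e-08). Soat1, which esterifies cholesterol for storage, was lower (7.83 ± 0.356 against 196 ± 22.8 CPM, −4.68 ± 0.27, adjusted p = 5.46e-11), and so were Lrp1 (11.6 ± 2.04 against 343 ± 0.334 CPM) and Cyp7b1 (1.85 ± 0.563 against 279 ± 4.31 CPM). Ribosomal messages made up 6.60% and 5.28% of UMIs in endothelial cells, above the astrocyte shares. Haemoglobin UMIs had means of 436 and 42.6 per endothelial cell and 12.7 and 2.94 per astrocyte, and their source was not tested. Astrocyte markers summed to 83.1 and 82.6 CPM in endothelial cells, with 12 and 11 of 12 detected and Mlc1 at 0 in mouse 2, against 9742 and 10512 CPM in astrocytes.

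Neuron types differed most in Cyp46a1. Between glutamatergic and GABAergic neuron-like cells it was the 1 member called, where 7.16% of all genes were higher and 4.83% lower. Its level was 131 and 98.0 CPM against 38.7 and 30.8 CPM (2.01 ± 0.31, adjusted p = 0.000122). The mice of both classes were well apart, and each class rested on at least 83 UMIs of the gene per mouse. Sqle (0.82 ± 0.29, adjusted p = 0.0646) was not called, but was among cells with at least 1% ribosomal UMIs (1.11, adjusted p = 0.0284). Hmgcs1, Fdft1, Srebf2, Insig1 and Dhcr7 lay between −0.15 and 0.60. Of the 42 pathway genes 3 were higher and 1 lower. All 3 were synthesis genes: Hsd17b7 (31.1 ± 15.9 against 12.7 ± 4.29 CPM, 1.45 ± 0.37, adjusted p = 0.0103) and, named after their values were seen, Mvd (1.58) and Tm7sf2 (11.7 ± 0.226 against 5.03 ± 0.291 CPM). Ribosomal shares were 1.54% and 2.41% in glutamatergic and 3.75% and 3.69% in GABAergic cells. The GABAergic cells of mouse 1 held a mean of 444 haemoglobin UMIs per cell, against 1.19 in mouse 2, and the source of these was not tested.

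Habenular neuron-like cells had far less Cyp46a1 than glutamatergic cells, at 6.72 and 9.09 against 131 and 98.0 CPM (−3.98 ± 0.34, adjusted p = 2.26e-08). It was again the 1 member called, where 12.1% of all genes were lower and 8.95% higher. The other 6 members all had negative fold changes, from −0.95 to −0.42, and Hmgcs1 (−0.95 ± 0.34, adjusted p = 0.0429) and Dhcr7 (−0.95 ± 0.30, adjusted p = 0.0227) fell short of the fold threshold. Among cells with at least 1% ribosomal UMIs Hmgcs1 was called too (−1.06, adjusted p = 0.00255). Of the synthesis genes 4 of 16 were lower and none higher, Hsd17b7, a sterol ketone reductase, among them (11.7 ± 4.96 against 31.1 ± 15.9 CPM, −1.50 ± 0.34, adjusted p = 0.00219). Neuron markers were all detected in habenular cells and summed to 11316 and 13686 CPM, against 16272 and 17680 in glutamatergic cells.

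The share of cells with a Cyp46a1 UMI was also highest in glutamatergic neuron-like cells. With every cell thinned to 5000 UMIs and shallower cells left out, 45.9% and 34.1% of glutamatergic neuron-like cells had one (207 and 1581 cells), against 19.1% and 17.5% of GABAergic cells (47 and 63 cells). Unresolved neuron-like cells had 20% and 15.3% (125 and 483 cells), overlapping the GABAergic shares. Without thinning the glutamatergic and GABAergic shares were 96.7% and 87.1% against 81.3% and 76.2%. Habenular cells had 4.20% and 5.22% after thinning (143 and 345 cells), where astrocyte-like cells had 3.92% and 5.25% and mature oligodendrocyte-like cells 2.10% and 2.50%. Without thinning, habenular cells had 30.8% and 20.1% at median depths of 51024 and 28385 UMIs, and mature oligodendrocyte-like cells 12.3% and 7.29% at 25242 and 14504 UMIs. After thinning, the habenular shares overlapped those of astrocyte-like cells and lay above both shares of mature oligodendrocyte-like cells. The part of free RNA in these low shares was not tested.

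Among glutamatergic clusters Cyp46a1 ran from 159 and 142 CPM in the cluster led by Cck and Tnnt1, through 111 and 97.1 CPM in that led by C1ql3 and Nptxr, to 60.7 and 56.1 CPM in that led by Kcnip4. The mice of neighbouring clusters did not overlap. In the same order, these clusters held 117, 23 and 69 cells of mouse 1 and 334, 545 and 727 of mouse 2. The makeup of the glutamatergic class thus differed between mice, and its part in the class levels was not tested. The Kcnip4 cluster had ribosomal shares of 0.226% and 0.289%, far below the 1.73% to 3.82% of the other clusters. Its Hmgcs1 level, 28.6 and 101 CPM, was also below that of the C1ql3 cluster, 254 and 378 CPM, and the same held for Fdft1 (10.8 and 42.0 against 99.8 and 106 CPM). The habenular clusters were split in the same way, with ribosomal shares of 3.82% and 4.36% in the cluster led by Tac2 and 0.327% and 0.324% in that led by Nwd2. Cyp46a1 was low in both, at 6.65 and 9.42 CPM and 6.88 and 7.81 CPM.

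**Figure D3:**
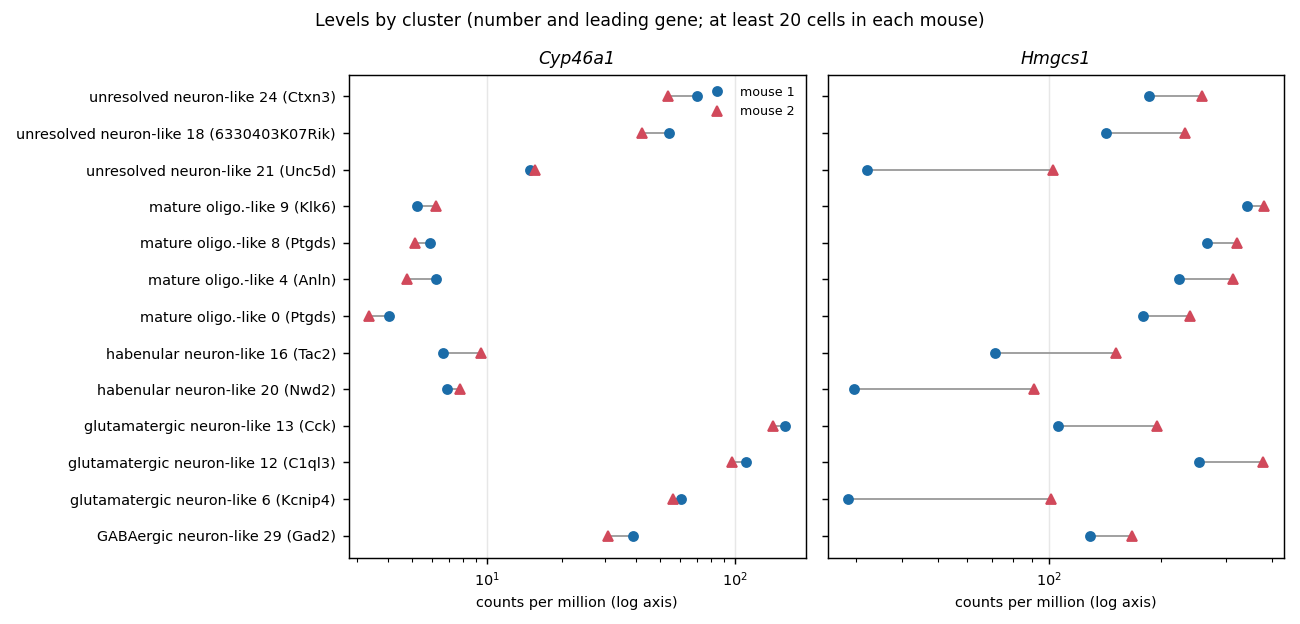
Cyp46a1 (left) and Hmgcs1 (right) in the neuron-like and mature oligodendrocyte-like clusters that held 20 or more cells of each animal, as CPM on a log axis. Circles are mouse 1 and triangles mouse 2, and labels give the cluster number and its leading gene. Cyp46a1 is highest in glutamatergic cluster 13, at 159 and 142 CPM, and Hmgcs1 in the Klk6 oligodendrocyte cluster and glutamatergic cluster 12.

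Over all classes, the 4 neuron-like classes together were set against the 10 non-neuronal ones. Cyp46a1, Fdft1 and Sqle were higher in neurons and no member was lower, where 24.2% of all genes were higher and 14.2% lower. Cyp46a1 had 51.0 ± 10.4 CPM in neurons and 6.12 ± 1.51 CPM in the other classes (SD, n = 2; 2.47 ± 0.15, adjusted p = 4.84e-12). Fdft1 (52.6 ± 11.8 against 34.2 ± 0.346 CPM, 1.14 ± 0.19, adjusted p = 1.45e-05) fell under the fold threshold at a mitochondrial limit of 5% (0.94), and Sqle (35.8 ± 8.65 against 26.3 ± 0.123 CPM, 1.11 ± 0.14, adjusted p = 3.46e-07) without clusters of low UMI count (0.93). Hmgcs1 missed the fold threshold (0.90 ± 0.14, adjusted p = 1.01e-05). Srebf2 (0.04), Insig1 (0.23) and Dhcr7 (0.01) were not called. By mouse, the fold changes were 0.76 and 1.89 for Fdft1 and 0.89 and 1.25 for Sqle, so both were under the threshold in mouse 1. The non-neuronal mean pools oligodendrocytes and astrocytes with vessel and immune classes of low level. For both genes, astrocyte-like and newly formed oligodendrocyte-like cells had higher class means than any neuron-like class. Of the pathway genes 3 were higher and 11 lower in neurons. Abcg4, an exporter related to Abcg1 (27.1 ± 4.69 against 3.63 ± 0.716 CPM, 4.10 ± 0.18, adjusted p = 1.02e-13), was higher in neurons. Apoe (51.2 ± 38.2 against 3860 ± 321 CPM, −4.40 ± 0.30, adjusted p = 3.19e-11), Abca1 (−3.55 ± 0.13, adjusted p = 4.2e-15) and Cyp27a1, another sterol hydroxylase (−3.54 ± 0.19, adjusted p = 9.2e-13), were lower.

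**Figure D4:**
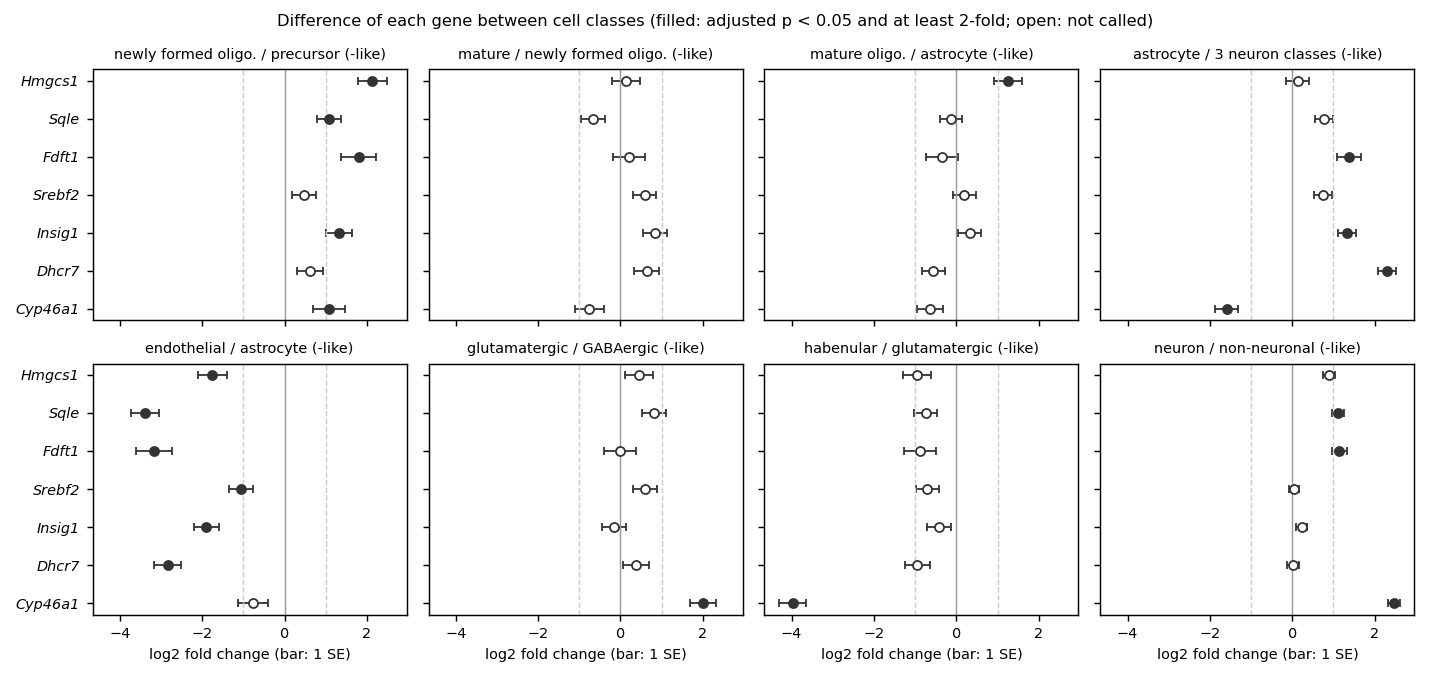
Log2 fold change of each of the 7 genes in the 8 comparisons, first class over the second, with 1 SE. Filled points were called (adjusted p below 0.05 and at or beyond the dashed lines at −1 and 1), and open points were not. Endothelial-like cells lie below astrocyte-like cells for 6 filled points, and Cyp46a1 is the filled point of both comparisons between neuron types.

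Levels of the members were compared over the 14 classes within each mouse, on the log2(CPM + 1) scale, as a description in which all points of a mouse share a library. Hmgcs1 and Fdft1 followed each other (Pearson's r of 0.92 in mouse 1 and 0.90 in mouse 2), while Cyp46a1 followed the other members weakly (0.23 to 0.52). The genes most like Hmgcs1 among 11137 candidates were Cyp51 (0.97 and 0.96), Fabp5 (0.92 and 0.94) and Fdft1, by the lower r of the 2 mice. Cyp51 was also first for Fdft1 (0.93 and 0.93). Srebf2 had lower likenesses, with Fdft1 (0.73 and 0.77) and Cyp51 (0.72 and 0.76) among its 3 nearest genes. For Dhcr7 these were Ttyh1 (0.87 and 0.95), Msmo1 and Nsdhl, for Insig1 Gstm5 (0.92 and 0.92), Pcyt2 and 4930402H24Rik, and for Sqle Tmem62 (0.92 and 0.94), 4930402H24Rik and Wasf1. Cyp46a1 was most like Kcnip4 (0.94 and 0.93), Hrh3 (0.93 and 0.92) and Ntng1 (0.91 and 0.90). Cyp51, Msmo1 and Nsdhl are enzymes of the sterol pathway, and Hrh3 is the gene of a histamine receptor.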

How the data were processed

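Raw counts of unique molecular identifiers (UMIs) per gene and barcode were deposited by the authors for 2 mice. The matrix headers and the submitters' processing notes name Cell Ranger 7.1.0, and the notes also name Seurat 5 and mm10; neither states the annotation, the strand setting or the use of intron reads. From these counts, cells with at least 500 genes, 1000 UMIs and at most 15% mitochondrial UMIs were kept. The minimum removed 1156 and 1849 barcodes, the mitochondrial limit 367 and 820 more, and doublet calling with Scrublet in scanpy 181 and 262 (2.84% and 2.78%, where 6.31% and 9.69% were expected from loading). Cells were clustered with scanpy 1.11.5 (2000 variable genes, 30 components, 15 neighbours, Leiden resolution 1), leaving out the members, the pathway, mitochondrial, ribosomal and haemoglobin genes, and clusters were named from marker lists. Naming thresholds and a minimum of 200000 UMIs per class were chosen after seeing the data; the latter left out choroid plexus-like cells, and ependymal-like and erythroid-like cells were too few. Counts were summed per mouse and class into 28 sums and tested with edgeR 4.0.16 (quasi-likelihood, TMM, filterByExpr, robust, mouse as block, 13 residual degrees of freedom), with Benjamini-Hochberg adjustment over all genes tested, and the steps were tested on simulated data. Both class sums of a comparison come from the same 2 animals, which is where the pairing comes from. The same counts served for clustering and testing, so p-values are somewhat too small. Intervals from 0 counts (3 counts of the total) cover counting error only. The pathway genes named with values were up to 4 called genes of largest absolute fold change that moved alike in both animals and reached 20 CPM, no class markers among them. Some genes of the list enter the counts and are not reported here by name. The members and lists were chosen with earlier results of these data known. Of 32285 gene identifiers, 32158 were in GENCODE vM21.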

Additional observations from a re-analysis of the deposited data

How the results depend on the processing

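Alternatives were DESeq2's size factors, DESeq2's test, no gene filter, no replicate block, a mitochondrial limit of 5%, at least 3000 UMIs per cell, no clusters of low UMI count, Leiden resolution 1.5 and, chosen after seeing the data, at least 1% ribosomal UMIs per cell. No called fold change of a member changed sign. Some small ones that were not called did, among them Hmgcs1 in mature against newly formed oligodendrocytes (−0.01 under both DESeq2 settings) and Dhcr7 in neurons against other classes (−0.25 at the mitochondrial limit of 5%). From precursors to newly formed oligodendrocytes the 5 members called became 3 under DESeq2's size factors, DESeq2's test, no gene filter, resolution 1.5 and at least 1% ribosomal UMIs. Without the replicate block, the 1 member called between mature oligodendrocytes and astrocytes became 0, and the 5 pathway genes called between habenular and glutamatergic neurons became 3; the block changed no other call of a member. With at least 1% ribosomal UMIs, 2 members in place of 1 were called in both comparisons between neuron types. The cause was not tested. Endothelial cells had no value without clusters of low UMI count. Each mouse left out gave a value with no test, and Insig1 in newly formed cells (1.28) and Dhcr7 in endothelium (−2.78) moved by more than the spread between mice. The 15 synthesis genes that rose in newly formed cells were 14 without the block and 15 under the other alternatives. Low counts limit Cyp46a1 outside neurons, with 1 to 277 UMIs per class and mouse.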

Other observations

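Some genes of the pathway differed between the mice across classes, a pattern chosen after their values were seen and not tested. Hmgcs1 was higher in mouse 2 in 13 of the 14 classes, a count that 2.90% of tested genes reached, and its geometric mean of mouse 2 over mouse 1 was 1.34. Insig1, Lss and Hsd17b7 were higher in mouse 2 in 12 classes, a count that 6.52% of tested genes reached. Ebp was higher in mouse 2 in 2 classes, a count that 95.1% of tested genes reached. Nr1h3, the gene of the oxysterol receptor LXR alpha, was higher in mouse 2 in 0 classes. The share of tested genes with a count as low as 0 was not worked out. Each mouse is 1 library, so animal and library cannot be told apart.

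In oxysterol metabolism, Cyp27a1 rose from precursors (7.63 ± 1.31 CPM, SD, n = 2) to newly formed oligodendrocytes (37.0 ± 8.57 CPM), by 2.32 ± 0.36 on the log2 scale (edgeR, adjusted p = 6.38e-05). Scarb1, a receptor for high-density lipoprotein, stood at 149 ± 33.5 CPM in endothelial-like cells and 11.6 ± 5.69 CPM in astrocyte-like cells (3.49 ± 0.42, adjusted p = 5.96e-07). Both were named after their values were seen.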
